A study of Bos taurus with 4 samples.

Results

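The genes described here encode the proteins that hold neighbouring cells together and let them exchange small molecules: cadherins, protocadherins and the catenins at adherens junctions, claudins and TJP scaffolds at tight junctions, and connexins at gap junctions. They were taken by symbol from the annotation of the array platform by a rule on symbols. It takes genes named as numbered cadherins, protocadherins, numbered claudins, connexins, TJP scaffolds or catenins of the alpha or beta kind, together with genes whose symbols begin in the same way, and does not cover every claudin and connexin. This gave 80 genes on 108 probes, of 15229 genes with a symbol and 43794 probes in all. The set held 23 cadherins, 16 protocadherins, 19 claudins, 13 connexins, 2 TJP scaffolds and 7 catenins and catenin-like genes.

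Cadherins bind the same or a related cadherin on the next cell, and catenins anchor their tails to the actin skeleton. Claudins seal or form channels in the space between epithelial cells, with TJP proteins as the scaffold beneath them, and connexins form the pores through which granulosa cells share metabolites and signals with one another and with the oocyte. In the ovarian follicle the granulosa layer is held together mainly by N-cadherin junctions and is coupled by gap junctions, whereas epithelial cadherins and claudins are better known from surface epithelia.

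Granulosa cells, which surround and nourish the oocyte within the follicle, came from 94 Holstein cows of a commercial embryo production centre and were obtained after hormonal stimulation of the ovaries and coasting, a gonadotrophin-free wait before collection. Poor donors were the cows whose oocytes mostly lacked the competence to develop into embryos in vitro, and good donors were those whose oocytes mostly had it. Each of 4 two-colour arrays set 1 pool of poor donors against 1 pool of good donors: on arrays 1 and 2, poor pools 5 and 6 carried Cy3 and good pools 1 and 2 carried Cy5, while arrays 3 and 4 had poor pools 7 and 8 in Cy5 against good pools 3 and 4 in Cy3. The pools' RNA was amplified over 2 rounds before labelling. Breed and stimulation were common to both groups, and neither the number of cows in a pool nor their ages were given in the sources used here. In such pools, fewer cells of a type and less RNA per cell cannot be told apart.

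Between 64.3% and 69.0% of all probes in the poor pools, and between 66.0% and 72.7% in the good pools, exceeded the negative controls, the spots with no matching transcript. Of 11 granulosa cell markers, 10 were above these controls in all 8 pools, and the remaining one, FOXL2, was above them in 7. At an adjusted p of 0.05 (limma) none of the 26181 probes tested differed with donor group (0%), the smallest adjusted p was 0.823, and 1559 probes had an unadjusted p under 0.05.

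Fewer of the junction genes than of all genes were above background. A gene was judged by its brightest probe, and a probe was above background in a pool when its raw intensity lay more than 2 SD over the mean negative control in the same channel. By this measure 35 of the 80 genes (43.8%) were above background in all 8 pools, against 65.2% of all genes with a symbol. At the other end, 12 of the 80 (15%) were above background in no pool, against 10% of all genes; they were CDH4, CDH7, CDH10, CDH15, CDH20, PCDH17, PCDHB11, CLDN18, GJA3, GJC3, GJD4 and CTNNA3. The remaining 33 genes were above background in 1 to 7 pools. These shares were compared without a test, and neither the probes' sensitivity nor their fit to current transcripts was measured.

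**Figure D1:**
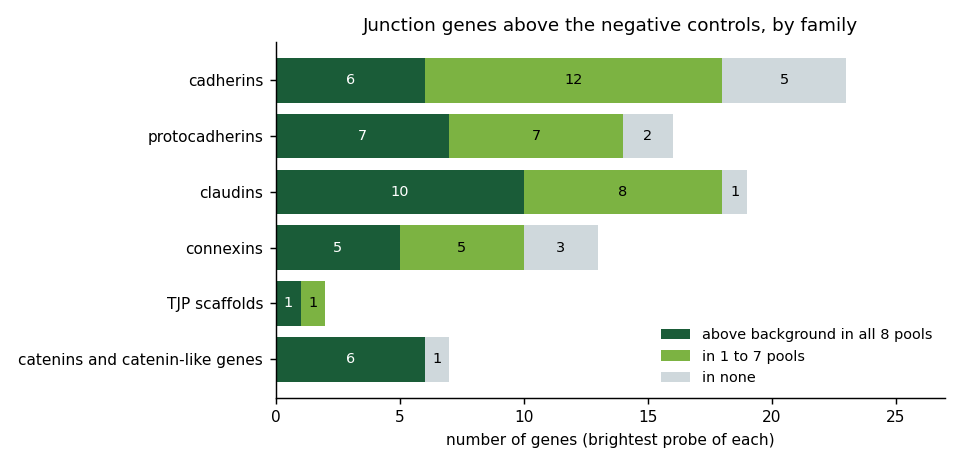
Number of genes (x axis) in each junction family (y axis) whose brightest probe exceeded the negative controls in all 8 pools, in 1 to 7 pools or in none. Catenins were above background in all pools in 6 of 7 genes and cadherins in 6 of 23.

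The families differed in how much of them was measured. Of the 7 catenins and catenin-like genes, 6 were above background in every pool, as were 10 of 19 claudins, 7 of 16 protocadherins, 5 of 13 connexins and 6 of 23 cadherins. Many of the unmeasured cadherins, such as the type II cadherins CDH7 and CDH20, are known from the nervous system. Among neighbours on the chromosome in the ARS-UCD2.0 annotation, CDH3 was above background in all 8 pools and the adjacent CDH1 in 2, and GJB2 was so in all 8 and the adjacent GJA3 in none.

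Between poor and good donors no junction gene passed the adjusted threshold. The fit took the 47 of the 80 genes (58.8%) whose brightest probe was above background in every poor pool, in every good pool or in both, against 72.1% of all genes, and it covered 59 of the 108 probes. The adjusted p-values of these probes lay between 0.823 and 0.999 (limma, with a dye term, adjusted over all 26181 probes). A difference is given as log2 of poor over good, so that a positive value is higher in poor donors. Because genes enter the fit through the group where they are bright, the counts below describe the genes tested and not the families as a whole.

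Of the 47 tested genes, 22 had a positive and 25 a negative fitted difference, with a median of -0.0009 and a range from -0.37 to 0.37. Over all 10974 genes tested the median was 0.0007 and the range -1.59 to 1.85. The median half-width of a 95% interval was 0.25 for the junction genes and 0.23 for all genes, so differences of about that size or less lay within the error of these arrays. By family, the median difference was 0.02 for 7 cadherins, -0.01 for 10 protocadherins, 0.00 for 15 claudins, -0.03 for 7 connexins and -0.02 for 6 catenins and catenin-like genes. None of these medians exceeded the SD of the family's median ratio over the 4 arrays, which was 0.09 for cadherins, 0.04 for protocadherins, 0.07 for claudins, 0.09 for connexins and 0.09 for catenins.

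**Figure D2:**
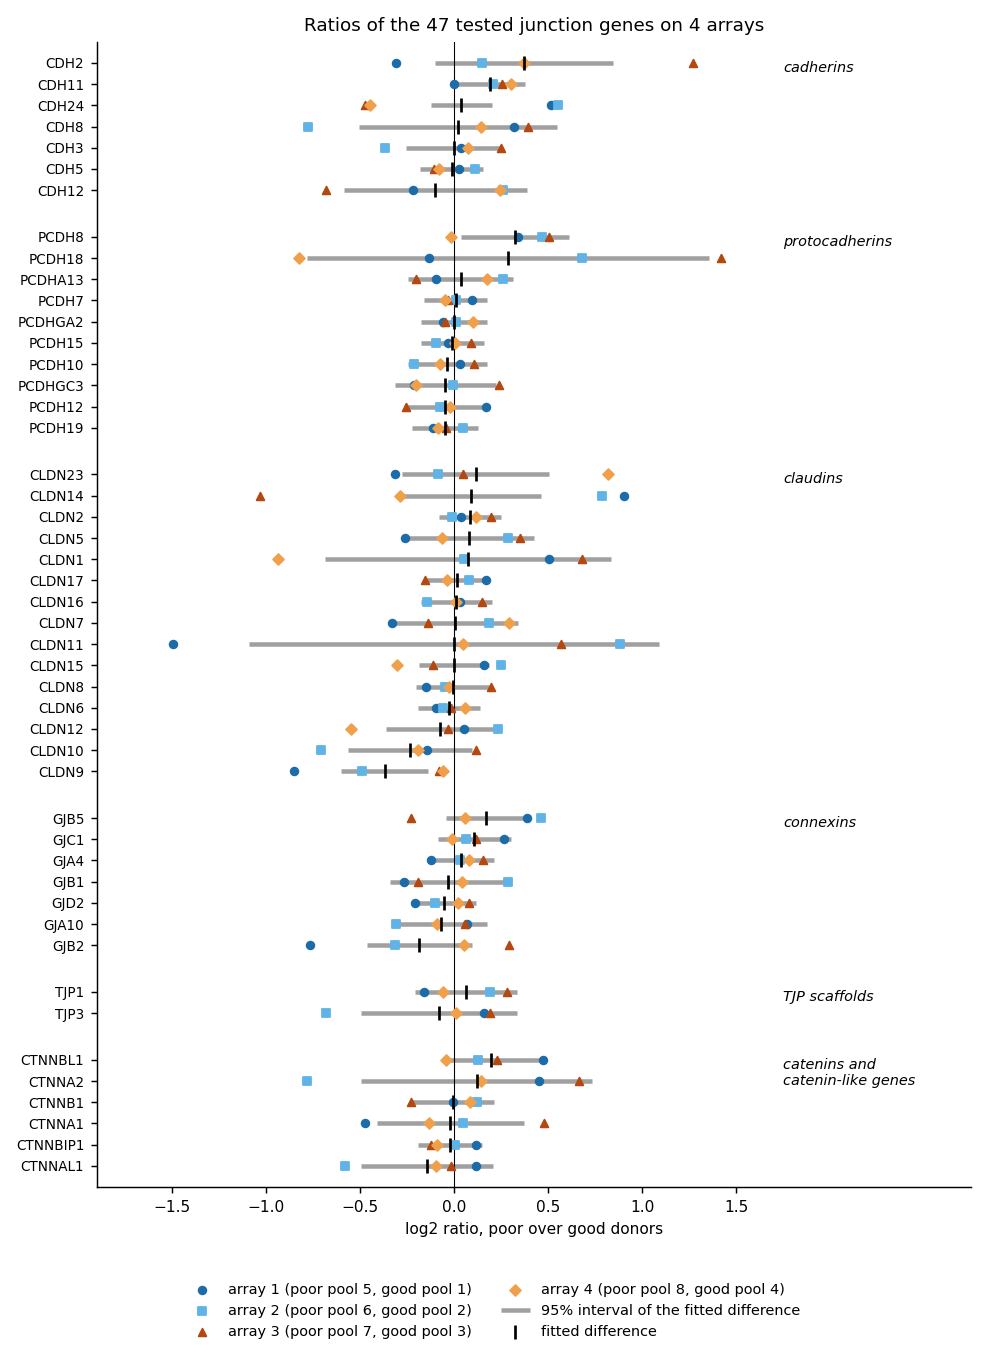
Log2 ratio of poor over good donors (x axis) for each of the 47 tested junction genes (y axis, grouped by family), with 1 point per array, the fitted difference and its 95% interval. The arrays of one gene often lie on both sides of 0, and CLDN11, PCDH18, CDH2, CLDN1 and CLDN14 have arrays furthest from it.

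Counted by an unadjusted p under 0.05, 2 junction genes of 47 were higher in poor donors, CDH11 and PCDH8, against 3.08% of all genes, and CLDN9 was lower, against 3.9% of all genes. All 4 arrays were positive for CDH11 only, against 5.65% of all genes, and all 4 were negative for CLDN9 only, against 6.05%. CDH11 had a ratio of 0.00 on array 1 and left this count with the local background subtracted, with no background correction, with mean spot intensity, with the mean of its probes and in the authors' deposited ratios. CLDN9 left it with median centring in place of loess and where every pool had to be above background. CDH11 left the count by unadjusted p with median centring, with the mean of its probes, where every pool had to be above background, without the dye term, and without array 2, 3 or 4. CLDN9 left it without the dye term and where every pool had to be above background, and PCDH8 in the separate-channel fit and without array 1, 2 or 3. These counts are near the shares among all genes, and each rests on 1 or 2 genes.

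N-cadherin, encoded by CDH2, had the largest positive fitted difference of the set and differed widely between arrays. Its log2 intensity was 11.24, 11.04, 11.87 and 11.19 in poor pools 5 to 8, against 11.10, 10.44, 11.06 and 11.26 in good pools 1 to 4. Poor pool 7 was the highest and good pool 2 the lowest, and the other 6 pools lay close together, so on this brightest probe the groups overlapped. A level is the log2 intensity of the pool's channel after normalization, with the mean gap of each probe between its Cy5 and Cy3 pools taken out, and levels of different probes are not compared.

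The CDH2 ratios were -0.31, 0.15, 1.27 and 0.37 on arrays 1 to 4, and the fitted difference was 0.37 (95% interval -0.11 to 0.84, limma adjusted p = 0.830). Without array 3 it was 0.15, and without array 4 it was 0.59. Both other CDH2 probes were also negative on array 1 and highest on array 3, with ratios of -0.22, 0.86, 1.56 and 0.51 on one and -0.36, 0.25, 0.39 and 0.09 on the other. On the second probe the fitted difference was 0.68 (95% interval -0.01 to 1.37), and its pools did not overlap, at 9.15 to 9.52 in the poor pools and 7.92 to 9.13 in the good pools. This held only with the dye gap taken out. With the gap kept, good pool 1, at 9.31, lay above poor pools 5 and 6, at 9.09 and 8.96. The dimmest probe had a difference of 0.09 (-0.25 to 0.43), and its groups overlapped.

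CDH11, a cadherin known from mesenchymal cells, was higher in every poor pool than in any good pool on its brightest probe, and not on its other 2 tested probes, whose groups overlapped. Its level on the brightest probe was 7.22, 7.42, 7.19 and 7.27 in poor pools 5 to 8, against 7.13, 7.13, 7.03 and 7.05 in good pools 1 to 4. Among all genes 2.2% had non-overlapping pools with poor above good and 2.42% with poor below good; of the junction genes, CDH11 and CLDN2 were of the first kind and none (0 of 47) of the second.

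The ratios of CDH11 were 0.00, 0.21, 0.25 and 0.30, the fitted difference was 0.19 (95% interval 0.00 to 0.38) and the adjusted p was 0.83 (limma). Its second probe had ratios of 0.09, 0.11, 0.12 and 0.16, whereas the dimmest had -0.71, -0.34, 0.41 and 0.36, negative in one dye orientation and positive in the other. With the mean of the 3 probes in place of the brightest one the difference was 0.08. CDH8, a type II cadherin next to CDH11 in the genome, had ratios of 0.32, -0.78, 0.39 and 0.14 and a fitted difference of 0.02.

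Some markers of theca and stroma cells, which surround the follicle, were also higher in poor donors. Of 11 such markers, 9 were above background in all 8 pools, and PDGFRB and TAGLN were so in 4 and 5 pools. The summed linear intensity of the list was 14532 to 19806 in the poor pools, against 9626 to 14267 in the good pools, with no overlap. ACTA2, the brightest marker of the list, weighed most in this sum. Its own groups overlapped, at 12.75 to 13.21 in the poor pools and 12.52 to 12.93 in the good pools. Of the 9 tested, 7 were higher in poor donors, with a median difference of 0.35, and none passed the adjusted threshold. LUM, at 1.85, had the highest difference of the list and of all genes tested. Its level was 10.85 to 12.32 in the poor pools and 8.88 to 10.92 in the good pools. The gap between the summed intensities depends on LUM, without which the sums of the donor groups overlap. CYP17A1 and INSL3, markers of theca cells, were at -0.004 and -0.02 and the stromal DCN at 0.02. The ratios of COL1A2 and PDGFRA were negative on arrays 1 and 4, unlike those of CDH11. The part of these cells in the CDH11 values was not tested.

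P-cadherin, encoded by CDH3, varied between the pools of each donor group. Its level was 8.84, 8.48, 8.17 and 7.84 in poor pools 5 to 8, against 8.63, 8.68, 8.08 and 7.93 in good pools 1 to 4. The 4 pools on arrays 1 and 2 were all higher than the 4 on arrays 3 and 4, in both donor groups, and the fitted difference was 0.00 (95% interval -0.26 to 0.25). E-cadherin (CDH1), the cadherin of surface epithelia, was above background in 1 poor and 1 good pool and was not tested. VE-cadherin (CDH5), which joins endothelial cells, was at 6.35 to 6.57 in the poor pools and 6.41 to 6.54 in the good pools, with a difference of -0.01 (-0.18 to 0.15). The CDH5 probe was dim, above background in 7 pools, and the correction used shrinks the ratios of dim probes.

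Endothelial markers were above background only in part. PECAM1 and TIE1 were above it in no pool, while 3 of the 9 listed markers, KDR, ESAM and ROBO4, were above it in all 8. TEK was above it in 7. KDR ranged from 6.43 in good pool 3 to 7.79 in poor pool 6. The summed intensity of the list was 799 to 968 in poor pools and 776 to 965 in good pools. The groups overlapped in both the list and CDH5.

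The other 3 tested cadherins gave no common direction. CDH12 and CDH8 had arrays of both signs in the same dye orientation, and CDH24 split by dye orientation, as described further on. In all, 6 of the 7 tested cadherins had a 95% interval that included 0.

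The catenins link cadherins to actin, and both CTNNA1 and CTNNB1 were above background in every pool. Over the pools, the median range of the 6 tested members of this family was 0.52 on the log2 scale, against 0.49 for all tested junction genes. Alpha-catenin (CTNNA1) was at 13.49, 13.62, 13.64 and 13.22 in poor pools 5 to 8, against 13.78, 13.38, 13.36 and 13.55 in good pools 1 to 4. Beta-catenin (CTNNB1), which also carries the Wnt signal to the nucleus, was at 12.38, 12.68, 12.19 and 12.38 in the poor pools, against 12.45, 12.63, 12.36 and 12.23 in the good pools. The groups overlapped for both genes, with differences of -0.02 (95% interval -0.41 to 0.37) for CTNNA1 and -0.01 (-0.23 to 0.21) for CTNNB1.

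CTNNA2, the alpha-catenin best known from neurons, varied most among the catenins. Its level was 8.79, 8.59, 9.46 and 8.75 in poor pools 5 to 8, against 8.05, 9.08, 9.08 and 8.89 in good pools 1 to 4. The lowest pool, good pool 1, was 2.65-fold under the highest, poor pool 7, and the groups overlapped. Its ratios of 0.45, -0.78, 0.66 and 0.14 ran in the same directions as those of CDH8, and its fitted difference was 0.12 (95% interval -0.50 to 0.73). Leaving out array 2 gave 0.43, and leaving out array 1 gave -0.19. The other 2 CTNNA2 probes were also negative on array 2 but by less, at -0.30 and -0.22.

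CTNNAL1, an alpha-catenin relative, had 3 tested probes that did not follow one another: the brightest had ratios of 0.12, -0.58, -0.01 and -0.10, and the next had 1.03, 0.59, 0.41 and -0.38. Their fitted differences were -0.14 (95% interval -0.49 to 0.21) and 0.41 (-0.02 to 0.84), opposite in sign. CTNNBL1, a nuclear protein of the spliceosome that shares the catenin name, had ratios of 0.47, 0.13, 0.23 and -0.05 and a difference of 0.20 (-0.06 to 0.45, limma adjusted p = 0.830). Poor pools 5 to 8 were at 9.13, 8.94, 9.10 and 9.06 for CTNNBL1, against 8.76, 8.92, 8.76 and 9.00 in good pools 1 to 4, and only poor pool 6 lay within the good range.

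Protocadherins, cadherin relatives with weaker adhesion that are best known from neurons and embryonic tissues, held 2 of the widely varying genes. PCDH8 was at 8.07, 8.15, 7.71 and 7.38 in poor pools 5 to 8, against 7.81, 7.76, 7.13 and 7.32 in good pools 1 to 4. Its ratios were 0.34, 0.47, 0.51 and -0.02, so 3 arrays were higher in poor donors and the fourth was level, and the groups overlapped. The fitted difference was 0.32 (95% interval 0.04 to 0.61) with an adjusted p of 0.828 (limma), and it ranged from 0.19 to 0.45 when 1 array was left out.

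PCDH18 differed strongly on 2 arrays in opposite directions. Its level was 7.95, 8.25, 8.72 and 7.09 in poor pools 5 to 8, against 8.07, 7.56, 7.31 and 7.93 in good pools 1 to 4. Both the highest pool (7) and the lowest (8) came from poor donors, and they lay 3.09-fold apart. The ratios were -0.14, 0.68, 1.42 and -0.82 and the difference was 0.28 (95% interval -0.79 to 1.35), which became -0.28 without array 3 and 0.84 without array 4. A second probe had -1.01, 0.22, 1.32 and -0.66, with the same signs, and the remaining, dimmer one stayed between -0.25 and 0.13.

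Of the stromal markers, the collagen COL1A2 and the receptor PDGFRA had ratios of the same signs as PCDH18, and they are given here after their values were seen. The PDGFRA ratios were -0.96, 1.31, 3.36 and -1.46, and the PDGFRA level was 10.74 in poor pool 7 and 7.51 in poor pool 8, its highest and lowest pools. Other markers of that list did not share this pattern: LUM was highest in poor pool 8, at 12.32, and COL1A1 and COL3A1 were highest in poor pool 6 and positive on all 4 arrays. The part of stromal cells in this variation was not tested.

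The other tested protocadherins had small fitted differences. PCDH7 was at 6.67 to 6.78 in the poor pools and 6.65 to 6.77 in the good pools, and its difference was 0.01 (95% interval -0.16 to 0.17). This probe was dim, and the correction used shrinks the ratios of dim probes, so equal levels are not shown. Further PCDH7 probes were above background in no pool. PCDH1 was above background in 3 poor and 2 good pools and PCDH17 in none, so neither was tested. The tested members of the clustered families, PCDHA13, PCDHGA2 and PCDHGC3, had differences between -0.05 and 0.03. Isoforms of these clusters share their last exons, and whether the probes lie there was not given in the sources used here, so the values may belong to several isoforms.

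Among the claudins, CLDN11 varied most between pools and CLDN9 gave the smallest p. CLDN11, known from Sertoli cells of the testis and from myelin, was at 9.94, 10.72, 8.40 and 9.72 in poor pools 5 to 8, against 11.13, 9.53, 8.14 and 9.98 in good pools 1 to 4. The highest pool (1) and the lowest (3) were both from good donors and lay 7.94-fold apart, the widest range of any junction gene above background in all pools. Poor pool 7, which shared array 3 with good pool 3, was the next lowest.

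The ratios of CLDN11 on arrays 1 to 4 were -1.50, 0.88, 0.57 and 0.05, with a fitted difference of 0.00 (95% interval -1.09 to 1.09). Leaving out array 1 gave 0.59 and leaving out array 2 gave -0.60. The interval thus spans more than a 2-fold change in either direction.

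EPCAM and MUC1, markers of epithelial cells, were also lowest in pools 7 and 3, and they are given here after their values were seen. EPCAM was at 8.86, 10.71, 7.06 and 9.84 in poor pools 5 to 8, against 10.06, 9.84, 7.23 and 10.00 in good pools 1 to 4. Of the 11 oviduct and surface epithelium markers listed, 10 were on the platform and 7 were above background in all pools, and their summed intensity was 6953 to 21351 in poor pools and 8281 to 20282 in good pools. The lowest sums in each group were those of pools 7 and 3. KRT19, the brightest marker of the list, weighed most in these sums and was itself lowest in pools 7 and 8, at 12.56 and 12.62. OVGP1, KRT7, WFDC2 and MUC16 of that list were likewise lowest in pools 7 and 3. Other markers of the list did not share this pattern: PAX8 was lowest in pool 3 but at 6.89 in pool 7, near its highest. FOXJ1 was lowest in pool 2, and ELF3 was highest in pool 3. The part of epithelial cells in the CLDN11 values was not tested.

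**Figure D3:**
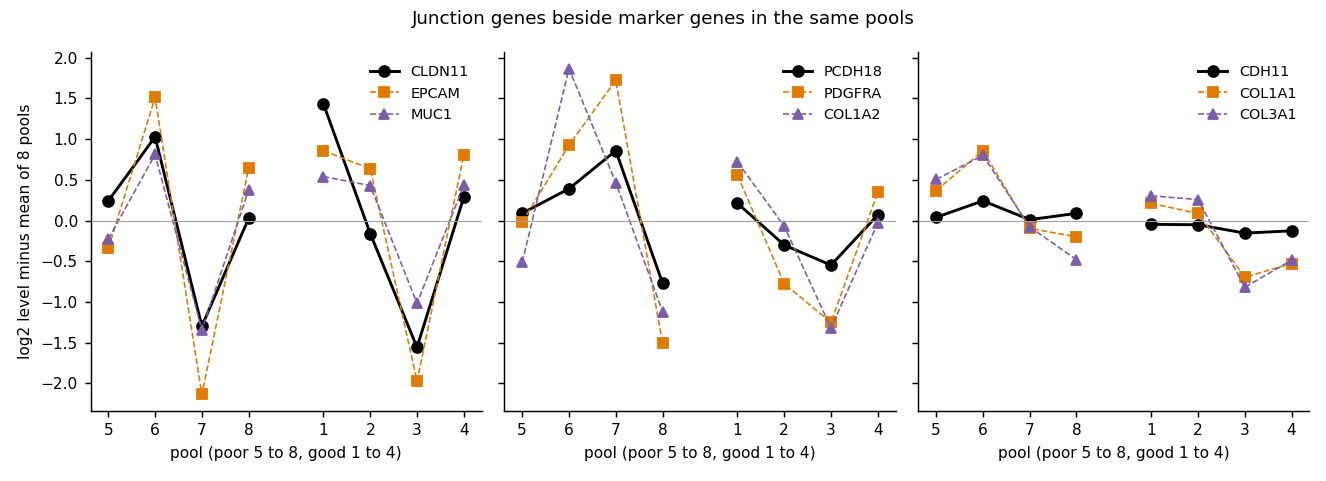
Log2 level minus the mean of the 8 pools (y axis) in poor pools 5 to 8 and good pools 1 to 4 (x axis) for CLDN11 beside the epithelial markers EPCAM and MUC1, PCDH18 beside the stromal markers PDGFRA and COL1A2, and CDH11 beside the collagens COL1A1 and COL3A1. CLDN11, EPCAM and MUC1 are lowest in pools 7 and 3, and PCDH18 and PDGFRA are highest in pool 7 and lowest in pool 8. The markers shown were picked from longer lists, and other markers of those lists did not share these patterns. Lines join the pools of a donor group and imply no order.

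CLDN1, a sealing claudin of epithelia, ranked next in range. It was at 10.11, 9.10, 9.31 and 7.92 in poor pools 5 to 8, against 9.81, 9.25, 8.42 and 8.65 in good pools 1 to 4. The highest and the lowest pool, 5 and 8, were both from poor donors and lay 4.58-fold apart. Its ratios were 0.50, 0.05, 0.68 and -0.94, and the difference of 0.07 (95% interval -0.69 to 0.84) became -0.33 without array 3 and 0.48 without array 4. CLDN16, next to CLDN1 in the genome, had a range of 1.15-fold over the same pools. The CLDN16 probe was dim, at 6.45 to 6.65, and the correction used also shrinks such a range.

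CLDN9 had a fitted difference of -0.37 (95% interval -0.60 to -0.14, limma adjusted p = 0.823). It was at 6.48, 6.54, 6.14 and 6.56 in poor pools 5 to 8, against 7.03, 6.73, 6.52 and 6.92 in good pools 1 to 4. Poor pools 6 and 8 lay just above the lowest good pool, so the groups overlapped slightly. The ratios were -0.85, -0.49, -0.08 and -0.06. Arrays 1 and 2, where poor pools were in Cy3, carried most of the difference, and the fitted dye term was 0.30.

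This gene was dim, above background in 3 poor and 4 good pools, and the correction used draws the ratios of dim probes towards 0. In the deposited log2 ratios its difference was -0.46. CLDN6, its neighbour in the genome and also dim, had ratios of -0.10, -0.06, -0.02 and 0.06.

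CLDN14 was split by array pair, and so by dye orientation, rather than by donor group. Its ratios were 0.90 and 0.78 on arrays 1 and 2, where poor pools were in Cy3, but -1.03 and -0.29 on arrays 3 and 4, where they were in Cy5. With the dye gap removed, its levels were 8.82, 8.99, 9.32 and 9.82 in poor pools 5 to 8, against 8.67, 8.96, 9.60 and 9.36 in good pools 1 to 4, and the difference was 0.09 (95% interval -0.28 to 0.46). Opposite signs on the array pairs were found in 12 of the 47 junction genes (25.5%), against 19.7% of all genes. CDH24 was another, with ratios of 0.51 and 0.55 against -0.47 and -0.45. A dye effect and a difference between the pools of the array pairs cannot be told apart here.

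None of the remaining named claudins passed the adjusted threshold. CLDN12 was at 9.98, 9.52, 9.66 and 9.57 in poor pools 5 to 8, against 10.14, 9.51, 9.47 and 9.91 in good pools 1 to 4, with a difference of -0.07 (95% interval -0.37 to 0.22) and of 0.09 (-0.08 to 0.26) on its second probe. CLDN10 had ratios of -0.14, -0.71, 0.11 and -0.20 and a difference of -0.23 (-0.56 to 0.10), after CLDN9 the most negative of the 47 tested genes. CLDN5, the endothelial claudin, had a difference of 0.08 (-0.27 to 0.42), and CLDN7, an epithelial one, of 0.00 (-0.34 to 0.34). CLDN3 was above background in 2 poor and 2 good pools and was not tested. CLDN2, whose pools did not overlap, was at 6.84 to 6.86 in poor pools and 6.72 to 6.82 in good pools, and its difference was 0.08 (-0.08 to 0.25). This probe was dim and the gap small. With the dye gap kept, good pool 2, at 6.82, lay above poor pools 5 and 6, at 6.80 and 6.81. The other CLDN2 probe was above background in no pool.

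The scaffold TJP1, also called zonula occludens protein, was bright in every pool. It was at 11.92, 12.05, 11.70 and 11.67 in poor pools 5 to 8, against 12.03, 11.81, 11.47 and 11.78 in good pools 1 to 4, and the groups overlapped. The difference was 0.06 (95% interval -0.21 to 0.33). TJP3, a scaffold of epithelia, was dim, with a difference of -0.08 (-0.49 to 0.33) and a ratio of -0.68 on array 2 against 0.01 to 0.19 on the others.

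The connexins gave no difference past the adjusted threshold. GJB2, an epithelial connexin, was at 7.08, 7.09, 6.68 and 6.59 in poor pools 5 to 8, against 7.49, 7.05, 6.74 and 6.89 in good pools 1 to 4. Good pool 1 stood highest and the groups overlapped. Its ratios were -0.77, -0.31, 0.29 and 0.05, with a sign that followed the dye orientation, and its difference was -0.19 (95% interval -0.46 to 0.09, limma adjusted p = 0.837).

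GJA4, the connexin that oocytes contribute to the gap junctions with granulosa cells in the mouse, was at 6.47 to 6.56 in poor pools and 6.41 to 6.56 in good pools. Its difference was 0.03 (95% interval -0.14 to 0.21), on a dim probe whose ratios the correction shrinks. The cells sampled were labelled granulosa cells, and of 7 oocyte markers on the platform 2 were above background in all pools, with a summed intensity of 576 to 632 in poor pools and 588 to 689 in good pools.

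GJB5, best known from skin and placenta, had ratios of 0.39, 0.46, -0.23 and 0.06 and a difference of 0.17 (95% interval -0.04 to 0.38). Its second probe had -0.26, -0.10, 0.25 and 0.11, of opposite sign on 3 of 4 arrays, and a difference of 0.00. GJC1, a connexin of vessels and heart, had a difference of 0.11 (-0.09 to 0.30). GJA5 and GJB6 were each above background in 5 of 8 pools and were not tested.

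The range of each gene over the 8 pools was also read, whatever the donor group. Such a range cannot be smaller than the distance between the group means, so the 2 are not compared. Of the 35 genes above background in all pools, 7 (20%) spanned at least 2-fold between their highest and lowest pool, against 8.29% of all such genes: CLDN11, CLDN1, PCDH18, CDH2, CTNNA2, CLDN14 and PCDH8. CDH3 came next at 1.99-fold. Poor pool 7 was the highest pool for 3 of the 7 (CDH2, PCDH18 and CTNNA2). Poor pools 5, 6 and 8 and good pool 1 were each the highest for 1. Good pools 1 and 3 and poor pool 8 were each the lowest for 2, and good pool 2 for 1. The highest pool was thus mostly a poor one and the lowest mostly a good one, in genes chosen for their range. The 2 pools of an array share its spots, so their levels are not independent (correlation within spots 0.409).

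**Figure D4:**
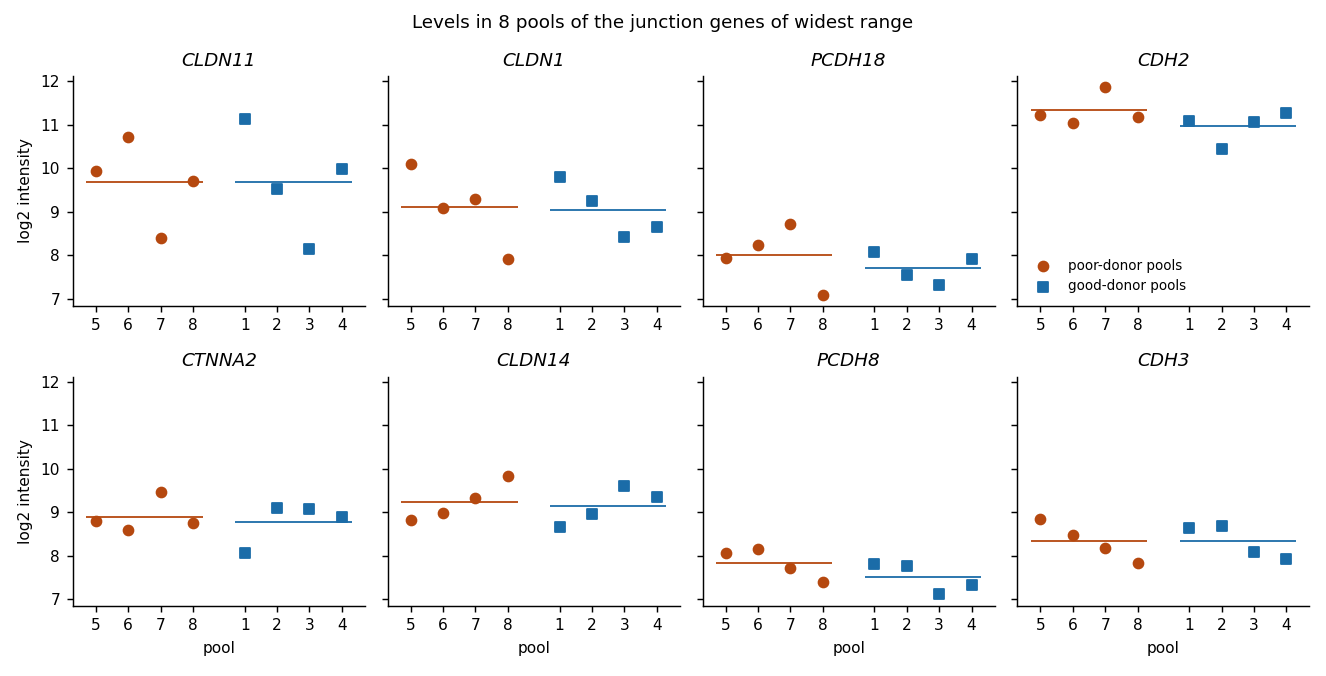
Log2 intensity (y axis) of the 8 junction genes of widest range in poor pools 5 to 8 and good pools 1 to 4 (x axis), with a line at the mean of each donor group. Poor and good pools overlap in all 8 genes, and the range within each group exceeds the distance between the group means.

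Several probes of one gene seldom gave the same sign. Of the 17 junction genes with 2 or more probes, 7 had at least 2 in the fit, and in 2 of these 7, CDH2 and GJB5, all fitted differences had the same sign. The brighter probes of CDH2 and of PCDH18 were high and low on the same arrays, while those of CTNNAL1, CLDN12 and GJB5 were not. Which transcripts each probe detects was not given in the sources used here.

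**Figure D5:**
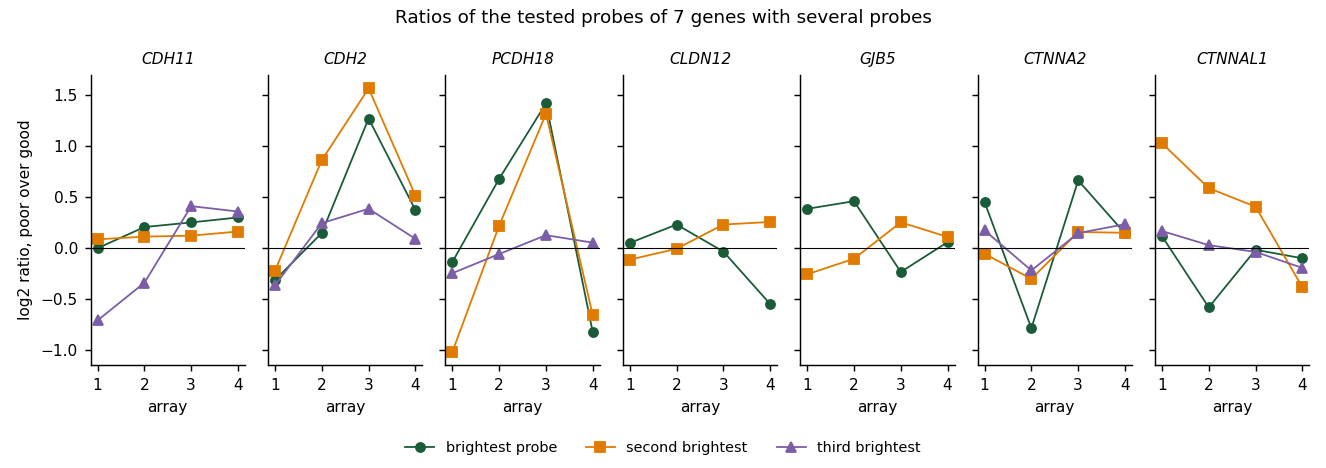
Log2 ratio of poor over good donors (y axis) on arrays 1 to 4 (x axis) for every tested probe of the 7 genes with 2 or 3 tested probes. The brighter probes of CDH2 and of PCDH18 are all highest on array 3, whereas the probes of CTNNAL1 and GJB5 differ. Lines join the values of a probe and imply no order.

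Further genes of the same junctions were read from lists chosen by function. Of 15 desmosome genes on the platform, which join cells through intermediate filaments, 11 were tested, 5 higher and 6 lower in poor donors, with a median difference of -0.03. PPL, a plaque protein, had a difference of -0.48 (95% interval -0.89 to -0.06) and PERP of -0.26 (-0.58 to 0.06). Of 20 further tight junction genes, 14 were tested, 5 higher and 9 lower, with a median of -0.07; LSR, a protein of tricellular junctions, was at -0.21 (-0.43 to 0.01) and the polarity kinase PRKCI at -0.22 (-0.52 to 0.08).

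Of 14 further adherens junction genes, 11 were tested, 5 higher and 6 lower, with a median of -0.01. CDHR1, a cadherin-related protein known from photoreceptors, was at -0.24 (95% interval -0.41 to -0.07) and the catenin CTNND2 at 0.25 (-0.11 to 0.61). None of the 3 pannexins, channel proteins related in shape to connexins, was above background in all pools or tested. No gene of these lists passed the adjusted threshold.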

How the data were processed

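Scanner tables held median spot and local background intensity for each channel as deposited, without normalization per the file headers. The authors also deposited a log2 ratio per probe; how it was normalized was not given in the sources used here. It correlated at 0.984 to 0.993 with the poor over good ratios computed here and served as an alternative. With limma 3.58.1 in R 4.3.3, intensities were corrected by normexp (offset 50), loess (span 0.3) was run within arrays, and Aquantile between arrays for pool levels. The offset draws ratios of dim probes towards 0. Of 45212 spots, 43794 were probes and 153 negative controls. The fit on 26181 probes (59.8%) held the donor difference and a dye term, with 2 residual and 2.50 prior degrees of freedom and Benjamini-Hochberg adjustment. Pools were the replicates; nothing says that they share no cows, and 4 arrays limit the precision.

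Members, gene lists and tests were chosen with earlier results of these data known. Named genes were a list of 25 on the platform, the 8 of smallest p and the 8 of widest range, 32 in all, plus the 2 of smallest p in each other junction list. Symbols came from the platform annotation, and all 80 were current in ARS-UCD2.0. Some other genes of these families are not reported here. The fit was tested on simulated data.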

Additional observations from a re-analysis of the deposited data

How the results depend on the processing

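No probe passed the adjusted threshold under any alternative for which the fit was run (1031 to 2778 probes with an unadjusted p under 0.05). Counts of junction genes moved more. The same sign on all 4 arrays, found in 2 genes, was found in 1 with local background subtracted, with no background correction, with the deposited ratios or with probes above background in all 8 pools, and in 6 with no filter on dim probes, which tests 80 genes. With 1 array left out it was found in 6 to 9, over 3 arrays only. The count of 3 genes past an unadjusted p of 0.05 was 1 without the dye term, 1 with probes above background in all 8 pools (35 genes tested), and 2 to 6 with 1 array left out: 6 without array 1, 5 without array 2, 2 without array 3 and 5 without array 4. The connexins' median of -0.03 ran from -0.031 to 0.056 with 1 array left out, the highest without array 1. The 35 genes above background in all pools were 29 at 3 SD and 38 at the 95th percentile of the controls, and the 7 genes of wide range were 5 to 9.

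Of the 26 named genes tested, 9 kept their sign under every alternative (CDH2, CDH11, PCDH8, CLDN9, CLDN10, GJB2, GJB5, GJC1 and CTNNBL1) and 17 changed it under some, all 17 when an array was left out. The smallest adjusted p of a named gene was 0.319 (CLDN9, separate-channel fit in limma). Except where an alternative tests fewer or more genes or arrays, the cause was not tested. The ratios already pair the poor and good pool of each array. No paired analysis was possible beyond this because the pools share no replicate numbers. Each of the 33 junction genes outside the fit was not above background in at least 1 poor and 1 good pool.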

Other observations

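The genes given here were chosen after their values were seen. CDH17 and CDH26, cadherins known from epithelia, were outside the fit because at least 1 pool of each donor group was not above background. CDH17 was above background in 6 pools, with a level of 6.73, 6.96, 6.10 and 6.38 in poor pools 5 to 8, against 7.71, 6.56, 6.31 and 6.75 in good pools 1 to 4. CDH26 was above background in 5 pools, with 6.90, 6.98, 6.02 and 6.23 in poor pools 5 to 8, against 7.58, 6.80, 6.25 and 6.50 in good pools 1 to 4. Both were highest in good pool 1 and lowest in poor pool 7, and CLDN11 was also highest in pool 1. CLDN23, with 6.72, 7.35, 6.28 and 6.87 in the poor pools, against 6.72, 7.12, 6.55 and 6.37 in the good pools, was lowest in pool 7 as well. DSP, a desmosome plaque gene, was at 6.31 in poor pool 7 and 6.54 in good pool 3, its lowest pools, and at 9.52 in poor pool 6, its highest. Pools 7 and 3 shared array 3. PERP, of the same desmosome list, was at 10.11 in pool 7 and 10.36 in pool 3, above its levels in pools 2, 5 and 6. The endothelial marker KDR was also lowest in pools 7 and 3, at 6.73 and 6.43. The part of epithelial cells in these values was not tested.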
